A study of Mus musculus with 6 samples.

Results

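Dentate granule neurons are the principal excitatory cells of the dentate gyrus, the region through which input from the entorhinal cortex enters the hippocampus. They were taken as all cells to which the authors gave the class dentate neuron in their deposited Drop-Seq table, 1123 of 12823 cells (8.76%). Removal of 1 called doublet left 1122 of them, among 12616 cells in all. Drop-Seq pairs each dissociated cell with a barcoded bead in a droplet and counts 3′ transcript ends by unique molecular identifier (UMI), so a level given below as CPM (UMIs of a gene scaled to the same total of UMIs in each class) does not scale with transcript length.

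All 6 mice were B6.Cg-Tg(APPswe,PSEN1dE9)85Dbo/Mmjax animals, called APP/PS1, which carry transgenes that lead to amyloid deposition, driven by the mouse prion protein promoter, and the control mice carried them too. Whole hippocampus was dissociated from 3 mice given phosphate buffered saline (PBS) and 3 given an antisense oligonucleotide (ASO), all labelled as 10 weeks old. By its title the study concerns lowering of IDOL, the ubiquitin ligase encoded by Mylip that marks lipoprotein receptors for degradation, so Mylip was taken as the target. Controls received saline rather than another oligonucleotide, so effects of the target and of oligonucleotides in general cannot be told apart, and mice without the transgenes were not analysed here.

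Granule neurons send mossy fibre axons to CA3 and to hilar mossy cells. Their identity is set by the transcription factor PROX1. At mossy fibre synapses they secrete the C1q-like proteins C1QL2 and C1QL3, which bridge presynaptic neurexin and postsynaptic kainate receptors. New granule neurons are added in adult mice from dividing precursors, and the young cells pass through a stage marked by doublecortin (Dcx).

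There were 169, 185 and 267 dentate granule neurons in the PBS mice (216830, 229432 and 339550 UMIs) and 209, 143 and 149 in the ASO mice (243797, 173217 and 181424 UMIs). Their median depth was 1131 to 1250 UMIs per cell, and no barcode was shared between mice among these cells (8 were over all cells). A pair of technical measures differed between mice. The level of mt-Rnr2 divided by that of mt-Cytb, both encoded by the mitochondrial genome, was 10.2, 5.15 and 13.1 in PBS mice 1 to 3. It was 8.46, 4.07 and 12.2 in ASO mice 1 to 3, the same order. By this order mice of the same number were taken as 3 sets that each hold 1 mouse of each group. The sets were not sharply apart, as PBS mouse 1 lay between ASO mice 1 and 3. Ttr, a transport protein gene of the choroid plexus, stood at 41.2 CPM in PBS mouse 3 and at 1807 to 5589 CPM in the other 5 mice. The highest value was that of ASO mouse 3, so Ttr did not pair the mice of the third set. Pooled CA1 neurons and interneurons had 2754 and 2568 CPM of it.

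The given markers were present in the labelled class in every mouse. Of the 1122 cells, 1107 (98.7%) held at least 1 UMI of Prox1, C1ql2, C1ql3, Stxbp6 or Ppp3ca. Ppp3ca alone was seen in 96.2% of them, and holding such a UMI is not particular to the class. In PBS mouse 1, for example, 165 of 169 dentate cells and 868 of 1821 cells of all classes held one. Because the authors' classes were made from the same expression values, all differences between classes are given as a description, with no test.

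Prox1 (chromosome 1, 190118035 to 190170714 of GRCm38, minus strand) was at 337, 445 and 518 CPM under PBS and 418, 421 and 430 CPM under ASO. CA1 neurons pooled over the mice had 11.5 CPM, and the small neurogenesis class, which holds precursors and young cells, was the next highest class. A Prox1 UMI was seen in 35.9% of dentate cells and in 0.608% of endothelial cells, at median depths of 1195 and 1026 UMIs. The order of these classes was kept at an equal depth of 600 UMIs per cell, with 21.7% against 0.276%.

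C1ql2 (chromosome 1, 120340582 to 120343174, plus strand) was at 489, 501 and 362 CPM under PBS and 386, 335 and 369 CPM under ASO, where the highest other class, CA2 and CA3 neurons, had 32 CPM. Its relative C1ql3 (chromosome 2, 13003457 to 13011806, minus strand) was at 498, 628 and 536 CPM and at 455, 658 and 744 CPM. C1ql3 was less restricted than C1ql2, with 204 CPM in CA1 neurons.

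Stxbp6 (chromosome 12, 44852484 to 45074709, minus strand), whose product amisyn binds SNARE proteins of vesicle fusion, was at 553 ± 40.9 CPM (SD, n = 6 mice), against 11.5 CPM in CA1 neurons and 156 CPM in oligodendrocytes. Ppp3ca (chromosome 3, 136670124 to 136937727, plus strand) encodes the catalytic subunit of the calcium-activated phosphatase calcineurin. It was at 5094 ± 909 CPM (SD, n = 6), with 6850 CPM in ASO mouse 1 and 4338 to 5174 CPM in the others. CA1 neurons had 3341 CPM. A Ppp3ca UMI was held by 96.2% of dentate cells and 23.6% of endothelial cells, and at 600 UMIs per cell by 88.7% and 15.4%.

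**Figure D1:**
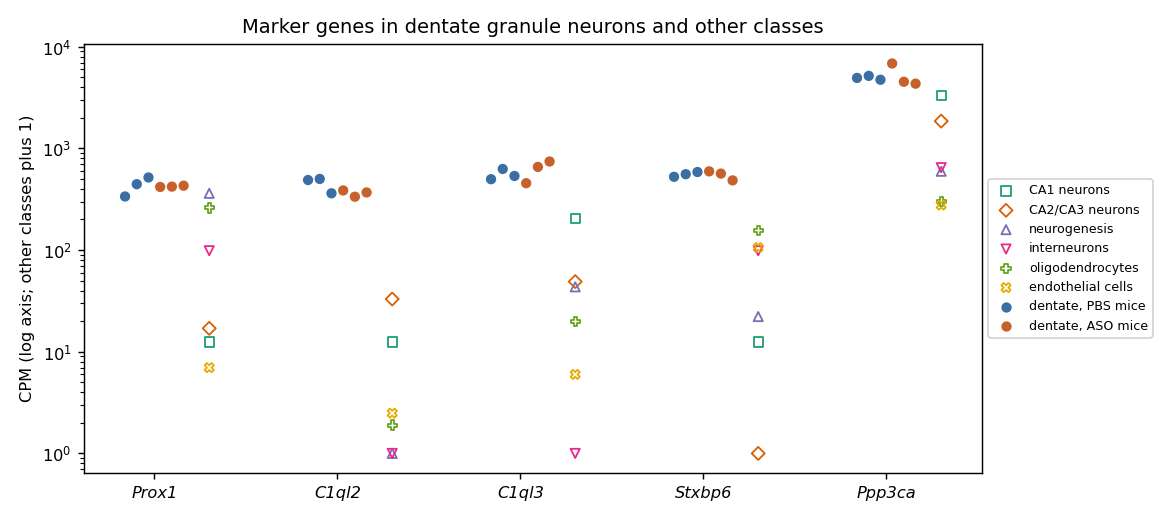
CPM (log axis) of the 5 marker genes in dentate granule neurons of each mouse (filled points, PBS mice 1 to 3 then ASO mice 1 to 3) and in 6 other classes pooled over the mice (open symbols, 1 CPM added). C1ql2 stood above every other class shown by over an order of magnitude, whereas Ppp3ca at 5094 CPM was close above CA1 neurons at 3341 CPM.

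Over all genes, given markers included, those with the highest ratio of dentate CPM to the highest other class (5 CPM added to both, dentate CPM at least 50) were ranked. The first were C1ql2 (ratio 11.1), Dsp (7.48), Lct (5.83), Rasl10a (5.71) and Plk5 (5.34). Dsp encodes desmoplakin, a protein of desmosomal junctions, and ranged from 69.7 to 220 CPM over the mice with at most 13.9 CPM in another class. Lct encodes the intestinal disaccharidase lactase and was at 61 to 138 CPM. Rasl10a, a Ras-like GTPase gene, was at 167 to 314 CPM, and Plk5, a polo-like kinase gene, at 87.6 to 156 CPM. Lyst, F730043M19Rik, Fam163b, Stxbp6, Dgkh, Ppp1r1a, Epha7, Kctd4, C1ql3 and Camkk1 followed, with ratios from 4.35 down to 2.57. Dgkh encodes a diacylglycerol kinase, Epha7 an ephrin receptor and Camkk1 a kinase that activates calcium/calmodulin-dependent kinases. In all 15 genes even the lowest dentate mouse was above CA1 neurons, which follows in part from their choice by this ratio.

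A wider list of known granule cell genes was also summed. It shares Dsp, Lct, Plk5 and Fam163b with the genes above and was chosen with earlier results of these data known. It is therefore no independent check. All 13 genes of the list had UMIs, and their summed level was 3068 to 4371 CPM in single mice against 518 CPM in CA1 neurons. Its most abundant members were Dock10 (640 CPM, against 60.4 CPM in CA1 neurons), Ahcyl2 (632 against 121), Rfx3 (541 against 130) and the axon guidance gene Sema5a (467 against 14.4). In the opposite direction the long noncoding RNAs Meg3 and Snhg11 were at 1907 and 821 CPM, where CA1 neurons had 8816 and 3790 CPM.

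Genes of synaptic signalling were broadly present. All 24 glutamate receptor genes and all 14 GABA receptor genes on the lists had UMIs. Gria2 and Gria1, AMPA receptor subunits, were at 2802 and 1720 CPM, close to CA1 neurons at 2944 and 1586 CPM. Grik2, a kainate receptor subunit, was at 1000 CPM with 745 to 1148 CPM over the mice, against 460 CPM in CA1 neurons. Among GABA receptor subunits Gabrb1 was at 534 CPM and Gabra2 at 365 CPM. Kcnip4, which encodes a partner of A-type potassium channels, was at 2978 CPM and Kcnd2, such a channel, at 1178 CPM, against 1396 and 743 CPM in CA1 neurons.

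Molecules that join synapses or drive release differed from CA1 neurons in both directions. Cadm2 and Lrrtm4, postsynaptic or cell adhesion proteins, were at 2072 and 1670 CPM against 835 and 538 CPM in CA1 neurons. Cplx2, the release protein complexin, was at 2025 against 878 CPM, and Syt1 and Snap25 at 2119 and 1604 against 3105 and 2107 CPM. Of calcium genes, the calmodulin gene Calm2 was at 2281 CPM and the plasma membrane calcium pump gene Atp2b1 at 2723 CPM.

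Prnp, the gene whose promoter drives the transgenes, was the fourth most abundant RNA of the class, mitochondrial genes aside, at 4362 CPM, with 3657 to 4855 CPM over the mice. It was higher still in CA1 neurons at 5399 CPM and lowest of all classes in microglia and macrophages at 136 CPM. The part of transgene transcripts in these UMIs was not tested. App was at 1514 CPM, with 1304 to 1870 CPM over the mice.

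Genes of immature granule cells were lower as a list in this class than in the separate neurogenesis class. Of 14 such genes, Neurod4, Igfbpl1, Eomes and Fxyd7 had no UMI, and the summed level of the list was 11.7% of that in the neurogenesis class. Most of the sum came from Tubb2b (172 CPM), Stmn1 (140), Marcksl1 (128) and Neurod1 (95.4), each found in over 10% of dentate cells. At 600 UMIs per cell, a UMI of 1 of the 10 more specific genes (those found in at most 10% of dentate cells, Dcx among them) was held by 4.73%, 1.08% and 4.12% of cells under PBS and 2.39%, 2.86% and 2.68% under ASO, where 3 ASO cells were too shallow. The groups overlapped, at 3.31% ± 1.96 and 2.64% ± 0.235 (SD, n = 3 mice each; exact two-sided permutation p = 0.6). Without thinning the shares were 5.95% ± 1.01 and 4.88% ± 1.24 (SD, n = 3 each; exact permutation p = 0.3). Unthinned, 50% of neurogenesis cells, 15.8% of CA1 neurons and 3.81% of endothelial cells held such a UMI at median depths of 1076, 1152 and 1026 UMIs, so the dentate share lay close to that of a vessel cell and is not read as a share of immature cells. Without PBS mouse 1 the difference changed sign, to 0.0442 percentage points.

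Markers of most other cell types were low in this class relative to their own class. The summed markers of interneurons stood at 1.73%, of astrocytes at 1.66%, of oligodendrocytes at 0.854%, of endothelial cells at 0.426% and of microglia at 0.371% of their level in their own class. Most of the interneuron sum was Gad1 at 93.9 CPM, found in 10.1% of dentate cells, while Gad2 was at 2.58 CPM. Macrophage, subiculum and entorhinal, and CA1 markers stood at 5.99%, 6.39% and 3.69%. Ttr, of the choroid plexus list, was at 2946 CPM on average and found in 73.3% of dentate cells. Whether these UMIs came from other cells was not tested. The list for CA2 and CA3 neurons reached 92% of its own class, a class of only 47 deposited cells. This came from Pcp4 at 523 CPM and Cpne4 at 258 CPM. Its members went both ways. Amigo2 and Bok, at 160 and 112 CPM in CA2 and CA3 neurons, were at 2.91 and 5.87 CPM, and Coch, Cpne4, Grik4 and Homer3 were also lower than there. Pcp4 was higher than there. Rgs14, Iyd and Cacng5 were at 28.6, 6.3 and 7.56 CPM against 0 CPM. In CA2 and CA3 neurons 3 UMIs make 150 CPM in PBS and 70.6 CPM in ASO mice, so a higher level of these was not shown. The levels of Coch and Homer3 there, 48 CPM each, also lay below both floors. Oligodendrocyte markers were at 530, 802 and 616 CPM under PBS and 882, 993 and 882 CPM under ASO, so the groups did not overlap. Microglia markers were at 47.1 to 87.2 CPM and 75.1 to 105 CPM, and endothelial markers at 26.2 to 70.7 CPM and 66.1 to 98.4 CPM. The part of these RNAs in the ASO comparisons below was not tested. Comparisons limited to cells that held none of the 3 cell types' markers are given below with their limits.

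Dentate granule neurons made up a smaller share of the cells recovered from ASO mice. They were 9.28%, 9.19% and 12.7% of all cells under PBS and 7.41%, 6.81% and 8.51% under ASO. The groups did not overlap, and the means were 10.4% ± 1.97 and 7.58% ± 0.861 (SD, n = 3 each). Among the 7 neuron classes they were 52%, 49.7% and 64.0% of cells under PBS and 44.1%, 38.9% and 43.6% under ASO, with means of 55.3% ± 7.69 and 42.2% ± 2.88 (SD, n = 3 each). Both exact two-sided permutation tests gave p = 0.1, the smallest that 20 splits of 3 against 3 mice allow, so neither can pass 0.05. As all ASO mice lay below all PBS mice, the lower share of the ASO mouse within each of the 3 sets follows from this and adds nothing. Without PBS mouse 3, which had the highest share, the difference was -1.66 percentage points of all cells in place of -2.8 and -8.69 points of neurons in place of -13.1.

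**Figure D2:**
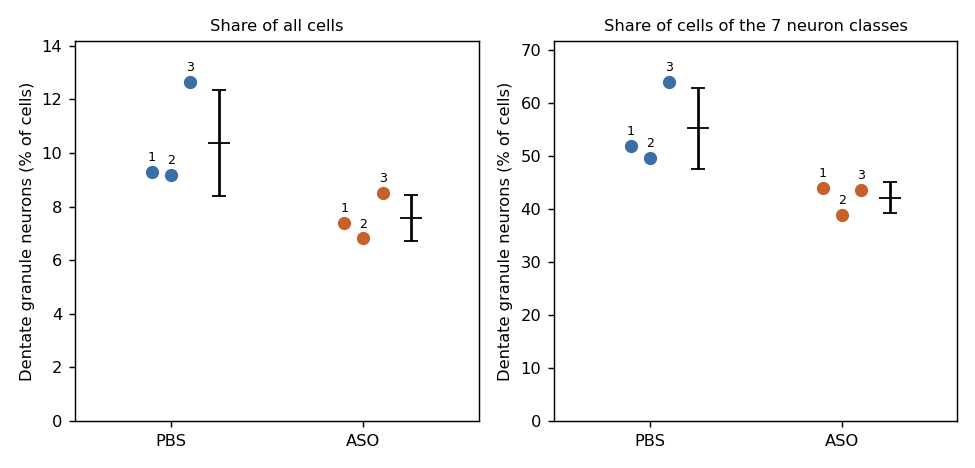
Share of dentate granule neurons among all cells (left) and among cells of the 7 neuron classes (right), in percent, for each mouse (points, numbered by mouse) with the mean and SD of 3 mice (black). In both panels all 3 ASO mice lie below all 3 PBS mice.

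Mylip, on chromosome 13 at 45389742 to 45412022 (GRCm38, plus strand), was rare in dentate granule neurons. The PBS mice had 2, 4 and 9 UMIs (9.22, 17.4 and 26.5 CPM) and the ASO mice 1, 0 and 0 UMIs (4.1, 0 and 0 CPM). The groups did not overlap, from which the lower level of the ASO mouse in each of the 3 sets follows. The means were 17.7 ± 8.64 and 1.37 ± 2.37 CPM (SD, n = 3 each; exact two-sided permutation p = 0.1, the smallest possible). Over pooled mice, 15 UMIs stood against 1, a ratio of ASO to PBS level of 0.0875 with an exact 95% interval from 0.00208 to 0.569 that covers counting error only and not the spread between mice. In the 2 ASO mice with no UMI, a count of 0 allows up to 17.3 and 16.5 CPM (3 UMIs of each total), which is within the range of the PBS mice.

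A Mylip UMI was held by 12 of 621 dentate cells of PBS mice and 1 of 501 of ASO mice. In astrocytes, the class with the lowest nonzero PBS level, 2 of 869 and 4 of 1008 cells held one at a median of 1095 UMIs. The other 6 neuron classes together had 14 Mylip UMIs in each group, at 24 CPM in PBS and 17.1 CPM in ASO mice, with 95% Poisson intervals of 13.1 to 40.3 and 9.35 to 28.7 CPM. Microglia and macrophages, where most Mylip UMIs were found, had 374 and 176 CPM.

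Whether the fall in dentate granule neurons differed from that in other cells was tested directly. The ASO effect on Mylip in dentate granule neurons minus that in all other cells was -2.42 on the log2 scale (SE 1.19). This gave an unadjusted edgeR p of 0.0417, which became 1 with adjustment over 12792 genes, so a difference was not shown. Mylip had too few counts for the fit within dentate cells alone and for that against other neurons. Restricted to cells with no microglia, oligodendrocyte or endothelial marker UMI, the difference was -11.4 CPM in place of -16.4 CPM (exact permutation p = 0.4). This left 78, 67 and 119 dentate cells in the PBS mice and 72, 43 and 52 in the ASO mice. Loss of counts and removal of other cells' RNA therefore cannot be told apart here.

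**Figure D3:**
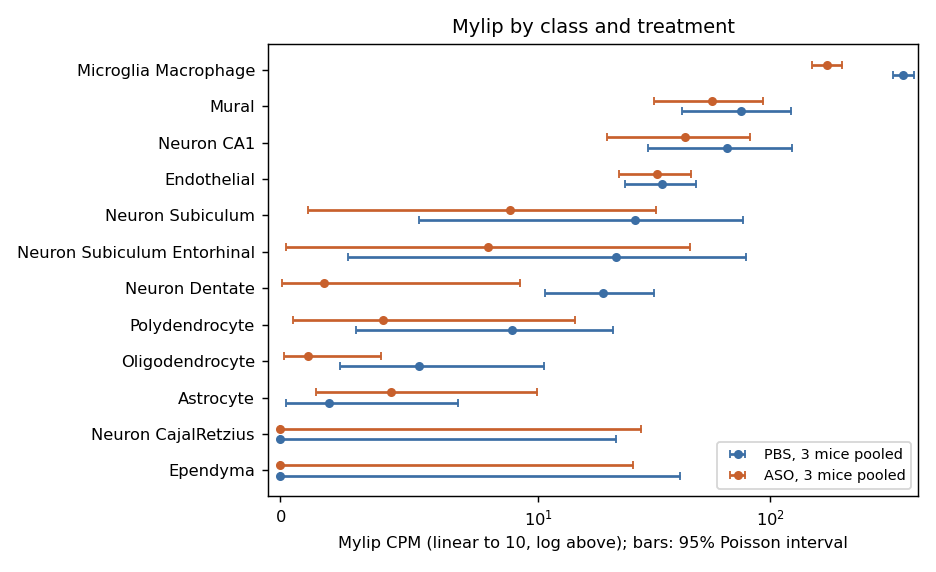
Mylip CPM in PBS (blue) and ASO (orange) mice by class, pooled over 3 mice each, with 95% Poisson intervals that cover counting error only, for classes in which 3 UMIs make under 40 CPM in both groups. The axis is linear up to 10 CPM and logarithmic above. Dentate neurons stood at 19.1 CPM in PBS and 1.67 CPM in ASO mice.

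The main comparison asked which other RNAs of dentate granule neurons differed with the ASO. Counts were summed per mouse and 5064 genes were tested with edgeR's quasi-likelihood test. No gene passed an adjusted p of 0.05 (0 of 5064, 0%). At an unadjusted p under 0.05 there were 168 genes (3.32%) with edgeR, 142 with DESeq2 and 184 with limma voom, and neither of these tools called a gene after adjustment. Higher levels were estimated for 2584 genes and lower ones for 2480, with a median log2 fold change of 0.006. The standard error of a gene's log2 fold change had a median of 0.305, with quartiles of 0.245 and 0.371. In 227 genes (4.48%) all ASO mice were above all PBS mice and in 203 genes (4.01%) all were below.

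The genes nearest to the threshold are given with their normalised CPM (scaled by edgeR over the tested genes), PBS mice first. None of them passed, and apart from Hbb-bs each had an edgeR adjusted p of 1. Among genes with lower estimates were several of peptide signalling and of axons. Grp, the gene for gastrin-releasing peptide, was at 100, 135 and 48.5 under PBS and 9.6, 66.3 and 13 under ASO, from 59 UMIs against 14. The ASO mouse was lower in each set, but the groups overlapped through ASO mouse 2, and the log2 fold change was -1.70 (SE 0.506). Penk, which encodes the enkephalin precursor, was at 211, 75.1 and 45 against 24, 53 and 32.4, with a log2 fold change of -1.53 (SE 0.485). Its PBS mean rested largely on PBS mouse 1, which had 38 of the 66 PBS UMIs.

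Stmn2 (chromosome 3, 8509360 to 8561606, plus strand), which encodes a microtubule regulator of growing axons, was at 94.5, 160 and 69.2 under PBS and 48, 53 and 19.5 under ASO. All ASO mice were below all PBS mice, and the log2 fold change was -1.35 (SE 0.409). Nkain3, a gene for a protein that interacts with the sodium/potassium pump, was at 283, 275 and 246 against 139, 119 and 182, a log2 fold change of -0.86 (SE 0.238) with the groups apart. The groups were also apart for 9330111N05Rik, Inpp4b, 6530403H02Rik, Grid1, Rassf8 and Ap1s1, with log2 fold changes from -1.16 to -0.76. Grid1 encodes a delta-type glutamate receptor, Inpp4b a phosphoinositide phosphatase and Ap1s1 a subunit of a clathrin adaptor.

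Genes with higher estimates included 2 that mark granule cells or calcium release. Dsp (chromosome 13, 38151294 to 38198577, plus strand), second among the genes that set the class apart, was at 111, 80.1 and 138 under PBS and 182, 186 and 259 under ASO, a log2 fold change of 0.88 (SE 0.263) with the groups apart. Itpr1, the inositol trisphosphate receptor that releases calcium from internal stores, was at 94.5, 120 and 132 against 178, 205 and 253, a log2 fold change of 0.84 (SE 0.254). Cck (chromosome 9, 121489824 to 121495694, minus strand), which encodes cholecystokinin, was at 66.7, 155 and 201 against 192, 477 and 253, so the groups overlapped, and its log2 fold change was 1.03 (SE 0.295). Lrrn1, Dot1l, Srcap, Spns1 and Epb4.1 had groups apart with log2 fold changes of 0.80 to 1.31. Zfp536 overlapped through ASO mouse 2, at 53 normalised CPM.

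**Figure D4:**
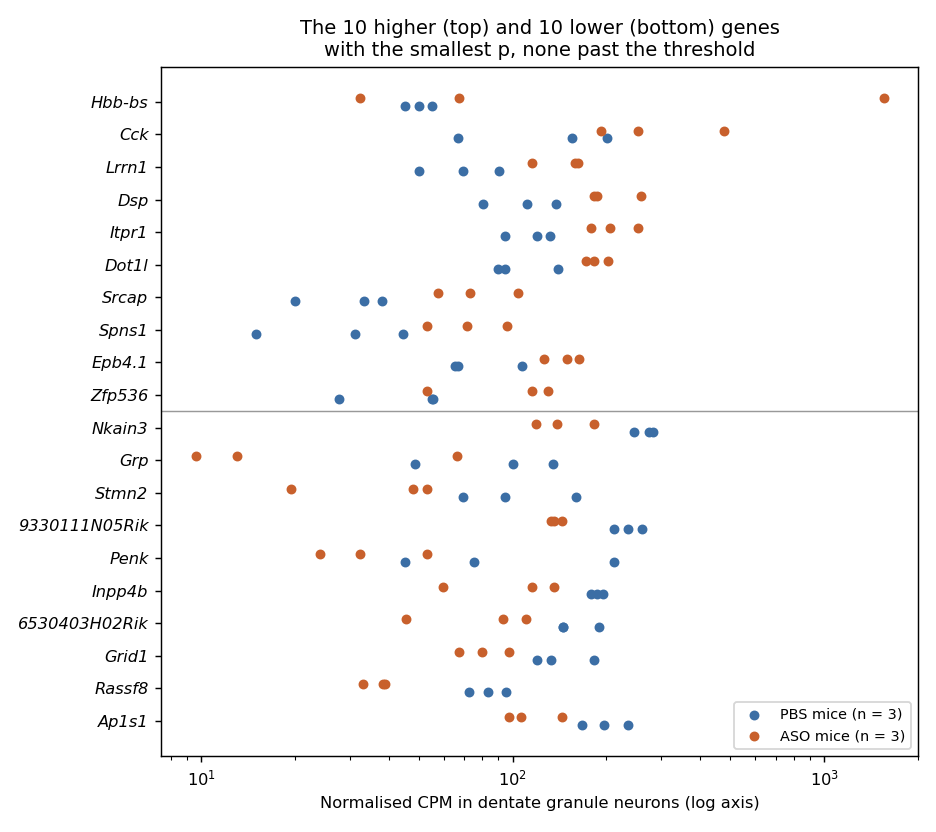
Normalised CPM (log axis) in each PBS (blue) and ASO (orange) mouse for the 10 genes with higher and the 10 with lower estimates that had the smallest p. For 15 of the 20 genes the ASO and PBS points do not overlap, which follows in part from their choice by p. Over all 5064 genes tested 4.48% were apart upwards and 4.01% downwards, and none passed the threshold. For Hbb-bs 1 ASO mouse lies at 1557 while the other 2 lie at 67.2 and 32.4.

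The lowest adjusted p belonged to Hbb-bs, a beta globin gene of red blood cells (chromosome 7, 103826534 to 103828096, minus strand), and it came from 1 cell. It had 9, 11 and 13 UMIs under PBS and 14, 235 and 5 under ASO, with a log2 fold change of 3.41 (SE 0.688; by edgeR, adjusted p = 0.087). A single cell of ASO mouse 2 held 224 of the 235 UMIs. Of the 1488 UMIs of that cell 448 were of haemoglobin genes, and 6 were of the 5 granule markers. No other dentate cell held more than 14 haemoglobin UMIs. Without ASO mouse 2 the log2 fold change was 0.0589 (edgeR adjusted p = 0.998).

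With a term for the 3 sets of mice, edgeR called 4 of 5064 genes (0.079%). Hbb-bs was one of them. Cck was higher in the ASO mouse of every set, with a log2 fold change of 1.08 (SE 0.232; by edgeR, adjusted p = 0.00772). Ttr had 0.78 (SE 0.179; by edgeR, adjusted p = 0.0189), but its normalised CPM was lower in ASO in the first and second sets (3952 to 3225 and 4824 to 2074) and higher only in the third (48.5 to 6576). Malat1, an abundant nuclear RNA, had -0.40 (SE 0.0943; by edgeR, adjusted p = 0.0226), being lower in the first and second sets (51519 to 26648 and 24314 to 18353) and not in the third (25048 to 27652). Without the 2 cells that held 10 or more haemoglobin UMIs, Cck, Ttr and Malat1 were still called, each at an adjusted p of 0.0172. For Ttr the SE was 0.179 with the term and 0.528 without it. A call in this fit therefore did not require the same direction in each set. These calls, that of Cck included, are given as a description only. The sets were seen in the data and are not named in the labels.

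Grouped by function, no list had a called member, and the counts are set beside all genes tested, 2584 higher and 2480 lower with 4.48% apart upwards and 4.01% apart downwards. The 5 class markers had 2 higher and 3 lower estimates and overlapping groups in each case, with log2 fold changes from -0.31 (SE 0.199) for C1ql2 to 0.14 (SE 0.198) for C1ql3. Among the wider granule cell genes 9 of 12 tested were higher, with a median log2 fold change of 0.34. All ASO mice were above all PBS mice for 4 of the 12, which were Dsp, Fam163b, Plk5 and Npnt. Fam163b was at 272, 220 and 211 normalised CPM under PBS and 403, 364 and 279 under ASO, and Npnt, the gene of the matrix protein nephronectin, at 88.9, 55 and 65.8 against 101, 146 and 123.

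Of 18 glutamate receptor genes tested, 8 were higher and 10 lower (median -0.05). Gria2 was apart upwards at 3087 ± 153 and 3465 ± 212 normalised CPM (SD, n = 3 each), which is 0.17 on the log2 scale (SE 0.194; by edgeR, adjusted p = 1), and Grik4 and Grid1 were apart downwards. Of 12 GABA receptor genes 5 were higher and 7 lower (median -0.03), with Gabrb1 apart downwards. Of 34 ion channel genes 19 were higher and 15 lower (median 0.01). Calcium and calcineurin genes had 17 of 27 higher (median 0.07), with Ppp3cb, Itpr1 and Ncald, a neuronal calcium sensor gene, apart upwards and the calmodulin gene Calm3 apart downwards.

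Genes of synaptic adhesion (10 of 24 higher, median -0.05) and of presynaptic release (11 of 27 higher, median -0.02) showed little net shift. In the release list Syt11, Slc30a3 and Nsf were apart upwards. Slc30a3 encodes the transporter that fills mossy fibre vesicles with zinc. Of 16 tested genes of peptides and growth factors, 6 were higher and 10 lower, with a median of -0.22, and 6 had an unadjusted p under 0.05. Bdnf, the gene for brain-derived neurotrophic factor, was at 912, 345 and 270 normalised CPM under PBS and 398, 325 and 227 under ASO, so that PBS mouse 1 alone stood high. Fgf12 was at 128, 80.1 and 83.1 against 48, 26.5 and 64.8, with the groups apart. In the same list Scg5 and Cpe, which serve the processing of peptide hormones, were apart upwards and Scg3 was apart downwards.

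Activity-induced genes were mostly below the filter, with 5 of 27 tested. Jun was the highest at 503 ± 21.7 and 438 ± 17.7 normalised CPM (SD, n = 3 each), apart downwards with a log2 fold change of -0.20 (SE 0.191; by edgeR, adjusted p = 1). Fos had 24 UMIs in PBS and 14 in ASO mice and Arc 2 in each. Mitochondrially encoded genes had 5 of 11 higher (median -0.03). The nuclear long noncoding RNAs had 2 of 5 higher, and Snhg11 was apart downwards at 1131 ± 166 and 793 ± 131 (SD, n = 3 each), which is -0.51 on the log2 scale (SE 0.193; by edgeR, adjusted p = 1).

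Receptors that IDOL acts on as proteins were compared at the RNA level. Vldlr (chromosome 19, 27216484 to 27254231, plus strand), a receptor for reelin and for lipoproteins rich in triglyceride, was at 167, 135 and 166 normalised CPM under PBS and 120, 119 and 136 under ASO. The groups overlapped by a narrow margin and the log2 fold change was -0.33 (SE 0.259, edgeR adjusted p = 1). Lrp8 (chromosome 4, 107802261 to 107876840, plus strand), the other reelin receptor, was at 55.6, 70.1 and 58.8 against 43.2, 39.8 and 51.9, apart downwards with a log2 fold change of -0.45 (SE 0.406; by edgeR, adjusted p = 1). Of 11 genes of the reelin and lipoprotein receptor list that were tested, 3 were higher and 8 lower, with a median of -0.09. Lrp1b and Dab1, the adaptor of reelin signalling, were the most abundant of them and had log2 fold changes of -0.14 and -0.09. Protein was not analysed here.

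Sterol genes were thinly covered. Of 14 genes regulated by or acting with the sterol-sensing LXR receptors 5 were tested, 2 higher and 3 lower (median -0.01), and of 24 genes of cholesterol synthesis and turnover 3 were tested. Among them were Cyp46a1, the neuronal cholesterol 24-hydroxylase (log2 fold change 0.41, SE 0.292), and Srebf2 (-0.43, SE 0.404). Among genes that process the amyloid precursor, 8 of 15 tested had higher and 7 lower estimates (median 0.02). App had -0.02 (SE 0.193) and Prnp 0.10 (SE 0.203). Each of these genes had an edgeR adjusted p of 1.

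Of the other cell types' lists, oligodendrocyte genes had 3 members tested and all 3 had higher estimates, among them Mbp at 429 ± 62.1 and 539 ± 59.6 and Mobp at 81.1 ± 30.1 and 141 ± 33.1 normalised CPM (SD, n = 3 each). Mobp was apart upwards. In the fit on cells that held no UMI of an oligodendrocyte, microglia or endothelial marker edgeR called 0 genes. The fit on all dentate cells also called 0, so the restricted fit cannot show how far such RNA bears on the estimates.

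The effect in dentate granule neurons was set against that in the other neurons of the same mice, summed over 6 classes. No gene differed at an adjusted p of 0.05 (edgeR with mouse as a block, 0 of 6279, 0%), and 328 (5.22%) had an unadjusted p under 0.05. The 4 with the smallest p each had an edgeR adjusted p between 0.364 and 0.368. Robo2, a receptor for Slit guidance cues, went from 343 to 405 CPM in dentate granule neurons and from 489 to 272 CPM in other neurons, a difference of 1.08 on the log2 scale (SE 0.247). Rgs4, a regulator of G protein signalling, went from 114 to 53.3 CPM and from 159 to 227 CPM (difference -1.58, SE 0.381). Nrxn3, the neurexin gene that pairs with the C1q-like proteins at mossy fibre synapses, went from 758 to 483 CPM and from 1096 to 1254 CPM (difference -0.86, SE 0.209). Rcn2, a calcium-binding protein of the endoplasmic reticulum, went from 44.5 to 87.6 CPM and from 136 to 80.3 CPM (difference 1.64, SE 0.41).

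Against all other cells summed, 4 of 12792 genes differed (0.0313%), and 579 (4.53%) had an unadjusted p under 0.05. All 4 were haemoglobin genes, Hbb-bs, Hba-a2, Hba-a1 and Hbb-bt, with differences of 2.71 to 3.09. Without the 2 dentate cells with 10 or more haemoglobin UMIs, and also without ASO mouse 2, edgeR called 0 genes. The next gene was Snhg11, which went from 961 to 682 CPM in dentate granule neurons and from 554 to 680 CPM in other cells (difference -0.80, SE 0.191, edgeR adjusted p = 0.0648).

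Cells within the class varied along a few axes. Leiden clustering on 1000 variable genes gave 3 sub-clusters of 565, 362 and 195 cells, but 12 at a resolution of 1.0 in place of 0.5, and another partition with 2000 variable genes (adjusted Rand index 0.347). Their leading genes and shares are therefore a description only.

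The sub-cluster of 362 cells was led by very long synaptic genes. Lrrtm4 was at 3353 CPM in it and 883 CPM in the other dentate cells, Kcnip4 at 5860 and 1668 CPM, Csmd1 at 2298 and 617 CPM and Grin2a, an NMDA receptor subunit gene, at 733 and 206 CPM. Its 50 leading genes had a median genomic span of 609 kb, against 29.6 kb over 12368 genes that were seen in at least 5 dentate cells and had an annotated span. Malat1 was also higher in it, at 39233 against 17435 CPM. These cells made up 40.8%, 28.1% and 30.7% of dentate cells under PBS and 42.6%, 15.4% and 32.2% under ASO, so the groups overlapped, and their median mitochondrial share was 5.03%.

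The sub-cluster of 565 cells was led by short housekeeping genes such as Ranbp1 (179 against 50.3 CPM), Psma2 (305 against 103) and Ppia (645 against 239), with a median span of 5.11 kb for its leading genes. It held 51.5%, 52.4% and 55.8% of cells under PBS and 38.8%, 63.6% and 40.3% under ASO. Prox1 differed little between it and the rest, at 433 and 440 CPM. The third, of 195 cells, was led by Unc5b, Crym, A430005L14Rik and Timp2 and made up 7.69%, 19.5% and 13.5% against 18.7%, 21% and 27.5%.

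With 2000 variable genes, a set of 207 cells was led by Timp2 (268 against 29.8 CPM), Trhr (120 against 6.32), Grp (170 against 23.5), Nr2f2 (105 against 16.2), Crym (366 against 94.8) and Stmn2 (170 against 38.8). Trhr, the receptor for thyrotropin-releasing hormone, and Nr2f2, a transcription factor gene, are known from the ventral hippocampus. Penk was also higher in these cells, at 127 against 44.2 CPM, and Dsp lower, at 68.8 against 147 CPM. The set held 19.5%, 24.3% and 18% of dentate cells under PBS and 16.3%, 21.7% and 10.7% under ASO. Grp, Stmn2 and Penk had lower estimates in ASO mice, and Dsp had a higher one. All 4 thus also differed between this set and the other dentate cells. Cck and Nkain3, also among the genes nearest to the threshold, went the other way. Cck was higher in the set (290 against 155 CPM) and had a higher estimate in ASO mice. Nkain3 was lower in it (148 against 190 CPM) and had a lower estimate. These levels were pooled over the mice, and variation within single mice was not tested. In the sub-cluster of 195 cells above, Grp (65.2 against 50.1 CPM) and Stmn2 (85.5 against 60.6) were also higher. Penk was instead lower there, at 20.4 against 69.4 CPM, and Dsp higher, at 155 against 126 CPM. The direction for Penk and Dsp thus depended on the partition. The part of the 207-cell set's share in the ASO estimates of these genes was not tested.

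**Figure D5:**
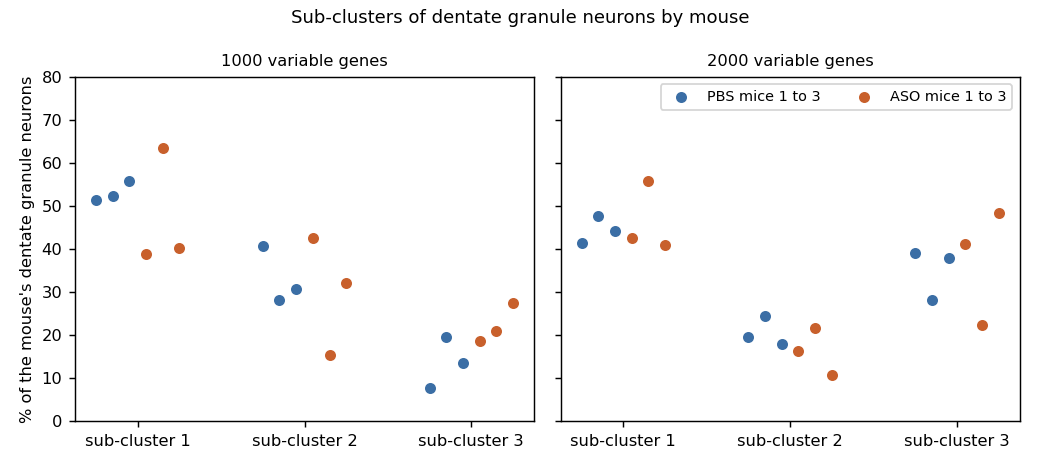
Share of each mouse's dentate granule neurons, in percent, in each of 3 sub-clusters computed from 1000 (left) and 2000 (right) variable genes, with PBS mice in blue and ASO mice in orange. The long-gene sub-cluster (2 on the left) ranges from 15.4% in ASO mouse 2 to 42.6% in ASO mouse 1.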

How the data were processed

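The authors deposited counts of UMIs per gene and cell for 28324 genes, not normalized, with a class in each cell's column name. The builds mm10 and GRCm38 and the tools bcl2fastq and STAR 2.5.0c are named in the submitters' processing notes. The counting program was not given in the sources used here. Deposited cells had 569 to 1999 UMIs and at most 15.0% mitochondrial UMIs. Scrublet in scanpy 1.11.5 called 207 doublets (1.61%), which were removed.

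Counts were summed per mouse and tested by the quasi-likelihood method of edgeR 4.0.16 (R 4.3.3, TMM scaling, filterByExpr, two-sided, Benjamini-Hochberg, threshold 0.05). DESeq2 1.42.0 and limma 3.58.1 were alternatives. The script was tested on simulated data. Effects in 2 populations were compared by an interaction term with mouse as a block. Shares and Mylip were compared by exact permutation tests over mice. Sub-clusters used 15 principal components and 15 neighbours.

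Named genes were the 5 markers, the 15 genes with the highest ratio to the next class, Mylip, Vldlr and Lrp8, the 10 genes nearest to the threshold in each direction, the 4 most abundant members of each list (some are not reported here) and the 4 interaction genes with the smallest p. Other genes were named after their values were seen. Members and lists were chosen with earlier results of these data known. Replicate numbers follow sample order. Gene coordinates come from GENCODE vM21 (GRCm38). Intervals and floors cover counting error only, and PCR copies were collapsed by UMI as deposited.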

Additional observations from a re-analysis of the deposited data

Results flagged for a closer look

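The ASO effect differed between dentate granule neurons and all other cells for 4 haemoglobin genes, by an edgeR test of the difference itself. The difference (dentate granule neurons minus all other cells, log2) was 2.91 for Hbb-bs (SE 0.303, edgeR adjusted p = 1.06e-17), 2.72 for Hba-a2 (SE 0.338, adjusted p = 5.81e-12), 2.71 for Hba-a1 (SE 0.346, adjusted p = 2.16e-11) and 3.09 for Hbb-bt (SE 0.539, adjusted p = 3.21e-05). In dentate granule neurons Hba-a1 stood at 41.5, 43.6 and 11.8 CPM under PBS and at 12.3, 583 and 16.5 CPM under ASO, so only ASO mouse 2 was high, and the cell with 448 haemoglobin UMIs belonged to that mouse. Other cells of the PBS and ASO mice had 354 and 275 CPM of Hba-a1. Without the 2 dentate cells that held 10 or more haemoglobin UMIs the difference for Hbb-bs was 0.407 (edgeR adjusted p = 1).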

How the results depend on the processing

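Over 18 other settings, none of the 20 genes nearest to the threshold changed direction wherever it could be fitted. The number of genes called for ASO against PBS was 4 with no filter on low counts (all haemoglobin genes), 4 with a term for the 3 sets of mice and 3 with that term and without cells rich in haemoglobin, and 0 to 2 with each mouse left out, the called genes being Hbb-bs and Hba-a2. Within sets, the 2 mice's log2 deviations from their groups had correlations of 0.126, 0.138 and 0.0193 over genes. Between sets the correlations ran from -0.175 (PBS mouse 1 with ASO mouse 2) to 0.0682 (PBS mouse 1 with ASO mouse 3). PBS mouse 3 with ASO mouse 2 had 0.0574, so the third set was not marked out by this measure. Marker genes with estimates near 0 changed sign: Prox1 with totals thinned to equality (0.147) and Stxbp6 in cells without other markers (0.129). With a mouse left out Prox1 ran from -0.191 to 0.102 (without PBS mouse 3), C1ql3 from -0.0267 (without ASO mouse 3) to 0.312, Stxbp6 from -0.12 to 0.0374 (without ASO mouse 3; 0.00557 without PBS mouse 3) and Ppp3ca from -0.192 (without ASO mouse 1) to 0.182. The cause was not tested.

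Against other neurons, leaving out 1 mouse gave 0 to 4 called genes. Without ASO mouse 2 these were Hbb-bs, Hba-a1, Hba-a2 and Grp (-3.53, edgeR adjusted p = 0.0278), without ASO mouse 1 Hbb-bs and Mef2c, and without PBS mouse 2 Ttr and Rab40b, named after their values were seen. Against all other cells the count ran from 0 (without ASO mouse 2) to 9 (without PBS mouse 3) and was 0 without cells rich in haemoglobin, where Hba-a1 changed sign (-0.266, and -0.464 without ASO mouse 2 against at most 3.36 with another mouse left out). The difference in the immature share ran from -1.78 to 0.0442 percentage points with a mouse left out. Resolution 1.0 gave 12 sub-clusters. At this depth a gene's median SE of 0.305 limits what could be called. The labels do not pair the mice, so the term for the 3 sets, which were seen in the data, was the only blocked fit of ASO against PBS.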
